A study of Mus musculus with 11 samples.

Results

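Expression of 8 genes of sterol synthesis (Hmgcs1, Idi1, Fdps, Fdft1, Sqle, Lss, Nsdhl and Dhcr7) was compared between PN1a and PN1b mammary lesions. Every probe set whose array annotation gave a single gene among these 8 was taken, which gave 13 probe sets of the 12422 that were tested. Fdps was measured by 4 probe sets and Nsdhl by 3, and each is described apart. The other 6 genes had 1 probe set each.

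PN1a and PN1b are lines of p53-null mammary epithelium that came from contralateral outgrowths of 1 mouse and were then passaged by serial transplantation into the cleared fat pads of wild-type Balb/c females. PN1a forms tumors often and PN1b rarely. The 5 PN1a and 6 PN1b samples were all mammary glands taken 8 weeks after transplantation, with no other treatment, and total RNA was measured on Affymetrix MG_U74Av2 arrays. Both groups thus lack p53 in the transplanted epithelium and share a wild-type host, each line descends from a single outgrowth, and the RNA came from whole glands in which host stroma, fat and blood cells remain. The luminal keratins Krt8 and Krt18 gave mean log2 intensities of 7.74 and 8.26 in PN1a and 8.99 and 9.65 in PN1b, so epithelial RNA was present in both groups. The titles of PN1b 1 to PN1b 4 are number ranges, and whether these samples are pools, or which samples come from separate animals, is not stated, so p-values cover only the spread among the samples as deposited.

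Cells make cholesterol from acetyl-CoA through the mevalonate pathway. HMG-CoA synthase (Hmgcs1) supplies HMG-CoA, isopentenyl diphosphate isomerase (Idi1) interconverts the isoprene building blocks, and farnesyl diphosphate synthase (Fdps) joins them into farnesyl diphosphate, the branch point from which sterols, prenylated proteins, dolichol and ubiquinone are made. Squalene synthase (Fdft1), squalene epoxidase (Sqle) and lanosterol synthase (Lss) lead to the first sterol, and Nsdhl and Dhcr7 act late, in removing methyl groups at carbon C4 and in the last reduction to cholesterol. When membrane sterol is low, the transcription factor SREBP-2 is released to the nucleus and binds sterol regulatory elements in the promoters of these genes, usually together with NF-Y, which binds CCAAT, and Sp1, which binds GC boxes.

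The promoters are shown because coordinated control by SREBP-2 is what this pathway is known for. RefSeq windows of 300 bases, from 250 before to 50 after the annotated start (mouse build GRCm38.p6), were matched for 5 of the 8 genes. Hmgcs1, Idi1, Lss and Nsdhl had 1 window each and Dhcr7 had 3. Fdps, Fdft1 and Sqle are named only. Both strands were searched for the core of the sterol regulatory element (TCACNCCAC), for CCAAT and for the GC box GGGCGG, motifs that share no letters where they were found. The core was present in 1.24% of the 32851 promoters of the table, CCAAT in 37.4% and the GC box in 35.7%. The windows of Hmgcs1, Idi1 and Nsdhl are printed, a choice made after the values were seen. Hmgcs1 was the only matched gene with the core, and Idi1 and Nsdhl were the matched genes with a called change. Capitals mark the core and every CCAAT, which reads ATTGG where it lies on the opposite strand.

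Hmgcs1 promoter, chr13:119690101-119690400, + strand: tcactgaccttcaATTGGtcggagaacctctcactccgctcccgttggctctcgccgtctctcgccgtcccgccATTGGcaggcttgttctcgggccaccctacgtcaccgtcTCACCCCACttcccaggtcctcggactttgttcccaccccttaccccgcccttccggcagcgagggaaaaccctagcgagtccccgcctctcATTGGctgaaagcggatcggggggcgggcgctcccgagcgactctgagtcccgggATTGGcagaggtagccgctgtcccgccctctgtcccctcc

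Idi1 promoter, chr13:8885356-8885655, + strand: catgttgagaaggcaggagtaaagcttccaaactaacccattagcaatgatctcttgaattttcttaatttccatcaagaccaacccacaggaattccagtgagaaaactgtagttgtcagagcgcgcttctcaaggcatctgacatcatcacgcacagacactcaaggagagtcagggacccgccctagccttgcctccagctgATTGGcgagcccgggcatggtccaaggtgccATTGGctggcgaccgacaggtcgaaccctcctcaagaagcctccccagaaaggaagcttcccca

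Nsdhl promoter, chrX:72918271-72918570, + strand: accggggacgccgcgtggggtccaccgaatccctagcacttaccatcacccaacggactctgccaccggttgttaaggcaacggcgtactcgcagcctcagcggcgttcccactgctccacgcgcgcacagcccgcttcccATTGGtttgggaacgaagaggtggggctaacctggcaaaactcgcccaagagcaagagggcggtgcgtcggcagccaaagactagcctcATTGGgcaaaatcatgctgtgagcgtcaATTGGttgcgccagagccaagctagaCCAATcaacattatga

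In Hmgcs1 the core reads TCACCCCAC and lies at -137 to -129, counted from the start site, between CCAAT matches that begin at -237, -176, -45 and 11. Idi1 held 2 CCAAT matches, at -45 and -14, and Nsdhl held 4, at -109, -20, 9 and 35. Hmgcs1 also held 3 GC boxes, and Idi1 and Nsdhl 1 each. The Lss window held 1 CCAAT and 2 GC boxes. Of the 3 Dhcr7 windows, 1 held 2 CCAAT and 3 GC boxes, 1 held a single GC box and 1 held no match. These are matches of letters and not measured binding sites.

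In PN1a lesions as compared to PN1b, 5 of the 13 probe sets were called higher and 0 were called lower. A call required an adjusted p under 0.05 in limma, with Benjamini-Hochberg adjustment over all 12422 probe sets, and a fold change of at least 1.5. The called probe sets were both bright Fdps probe sets, 2 of the 3 Nsdhl probe sets and the Idi1 probe set. Over all probe sets, 0.869% were called higher and 1.62% lower. In these same 5 probe sets the lowest PN1a sample exceeded the highest PN1b sample, an ordering that 1.58% of all probe sets showed, while 2.38% showed the reverse ordering and no member did. The log2 difference, PN1a minus PN1b, was above 0 in 11 of the 13, against 48.6% of all probe sets, and its median was 0.66 against -0.01 over all. Counted by gene, with the brightest probe set standing for each, 2 of 8 (25%) were called higher, against 0.836% of 8251 genes. All 5 calls were lost when the shared ending of the sample titles was used as a fixed block, or when the samples with 1 of these endings were taken alone (5 PN1a and 2 PN1b). In both of these fits the median difference of the 13 probe sets was 0.85, and 0.0966% and 0.0483% of all probe sets were called higher. The ending and the line overlap almost wholly in the design, since every PN1a sample and only PN1b 5 and PN1b 6 carry that ending.

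**Figure D1:**
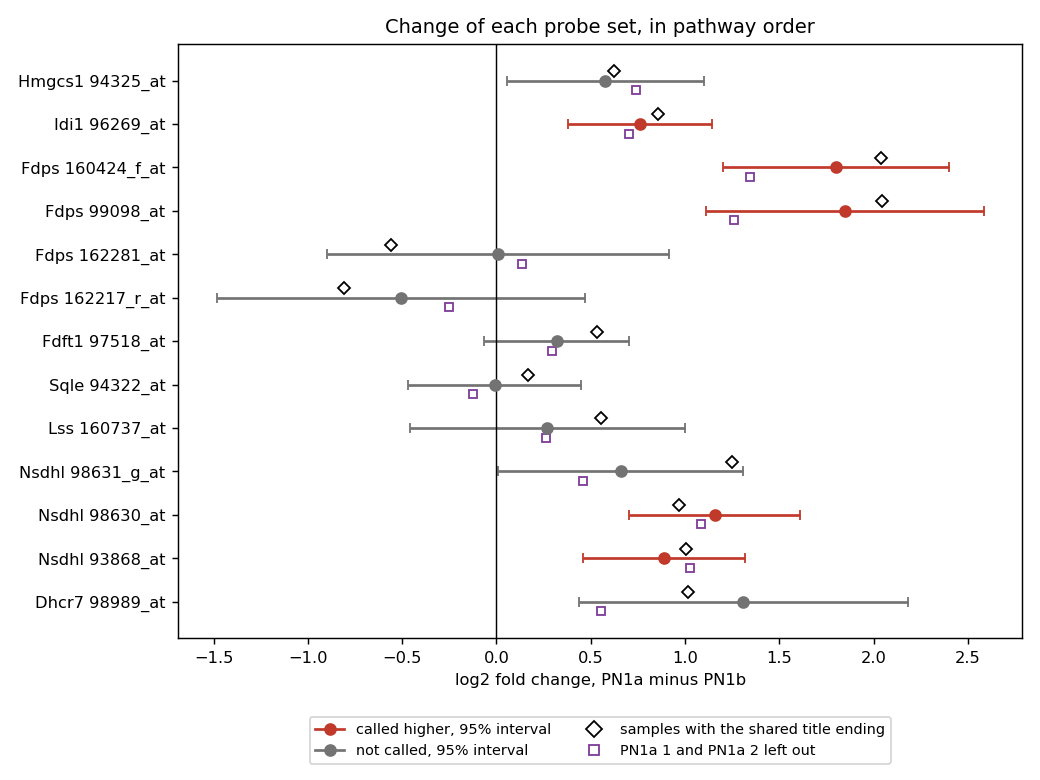
Log2 difference in intensity between PN1a and PN1b (x axis) for each of the 13 probe sets (rows), with 95% intervals from limma over 11 samples. Open diamonds give the difference among the samples that share the title ending of PN1a, and open squares the difference without PN1a 1 and PN1a 2. The 2 bright Fdps probe sets lie farthest right, at 1.80 and 1.85.

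The 2 bright Fdps probe sets showed the greatest differences of the 13 probe sets, while the 2 dim ones did not differ detectably. On probe set 99098_at the intensities were 118, 94.4, 42.2, 44.0 and 29.7 in PN1a 1 to PN1a 5. In PN1b 1 to PN1b 6 they were 18.5, 21.3, 18.8, 11.4, 16.8 and 11.5. The lowest PN1a sample was above the highest PN1b sample, and PN1a 1 and PN1a 2 stood well above the other 3 PN1a samples. In PN1a the log2 intensity averaged 5.84 ± 0.84 (SD, n = 5), while PN1b averaged 3.99 ± 0.38 (SD, n = 6), which is a 3.60-fold difference (95% interval 2.16 to 6.00, limma adjusted p = 0.0140).

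The second bright probe set, 160424_f_at, gave the same picture. PN1a 1 to PN1a 5 read 109, 83.9, 45.9, 43.1 and 41.4, and PN1b 1 to PN1b 6 read 20.4, 17.5, 23.4, 14.2, 13.4 and 15.8. Again no PN1a sample fell into the PN1b range, and PN1a 1 and PN1a 2 were the highest. The difference was 3.48-fold (95% interval 2.30 to 5.28, limma adjusted p = 0.00429). The suffix _f marks probes that can match several members of a sequence family. The array annotation gave Fdps alone for 160424_f_at, but an Fdps-like locus may also be matched, so this probe set may not read Fdps alone. The changes of the 2 probe sets differed by -0.05 on the log2 scale (160424_f_at minus 99098_at, exact permutation test, two-sided p = 0.792).

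The remaining 2 Fdps probe sets were dim. Probe set 162281_at read 3.25, 1.55, 1.97, 1.37 and 8.17 in PN1a and 2.17, 2.01, 2.57, 1.73, 4.76 and 2.99 in PN1b. The groups overlapped entirely, and the log2 difference was 0.01 (95% interval -0.90 to 0.91, limma adjusted p = 0.996). Probe set 162217_r_at was at the floor of the table, an intensity of 1, in 4 of the 11 samples, and in the others it read between 1.11 and 6.02. It is a probe set with fewer than the usual selection rules applied to its probes, as the suffix _r marks, and its log2 difference was -0.51 (95% interval -1.48 to 0.47, limma adjusted p = 0.595). Mean log2 intensity over the 11 samples put 162281_at at the 15.98 percentile of all probe sets and 162217_r_at at the 1.08 percentile, against 77.04 and 78.03 for the bright ones.

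The differences between probe sets were tested for the 9 pairs within Fdps and within Nsdhl by an exact permutation test of the group labels (two-sided, smallest possible p 0.00216). None of the 9 pairs passed after adjustment. In the 4 pairs of a bright and a dim Fdps probe set the changes differed by 1.79 to 2.35 on the log2 scale, with an adjusted p of 0.0682 for each. The dim probe sets 162281_at and 162217_r_at were at the floor in 0 and 4 samples. Whether their low intensity held back a change was not tested. Without PN1a 5, 4 pairs passed (adjusted p 0.0143 to 0.0214). Averaged over its 4 probe sets, Fdps differed by 0.79 (SE 0.20, limma adjusted p = 0.0529), less than Dhcr7 at 1.31 and Nsdhl at 0.90, and was not called.

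**Figure D2:**
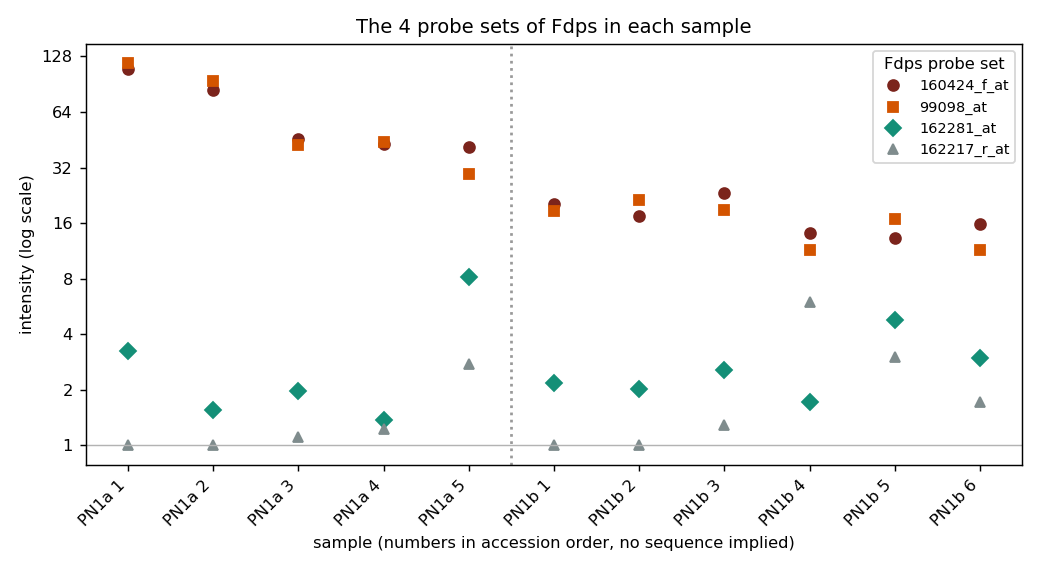
Intensity (log scale) of the 4 Fdps probe sets in each of the 11 samples. The bright pair lies between 29.7 and 118 in PN1a and between 11.4 and 23.4 in PN1b, while the dim pair lies between 1 and 8.17 in both groups.

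The size of the Fdps difference rested partly on PN1a 1 and PN1a 2, but its call did not. Without both, 99098_at and 160424_f_at still differed by 1.26 and 1.34 on the log2 scale (limma adjusted p = 0.0373 and 0.00979). Both probe sets kept their call when any 1 of the 11 samples was left out, with adjusted p of at most 0.0407 and 0.0151. With the methods' t-test and Benjamini-Hochberg adjustment, however, 99098_at was not called (adjusted p = 0.0565). Among the samples that share the title ending of PN1a, both PN1b samples were below every PN1a sample on each bright probe set, and the log2 difference was 2.04 for each (limma adjusted p = 0.505 and 0.256).

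PN1a 1 and PN1a 2 also stood apart outside this pathway. Before the ending, the titles of these samples are single numbers, while those of PN1a 3, PN1a 4, PN1a 5, PN1b 5 and PN1b 6 hold letters. What the title forms stand for is not stated. The geometric mean signal of the 18S RNA controls in PN1a 1 and PN1a 2 was 157 and 211, against 5.68 to 17.96 in the other 9 samples. The summed intensity of 11 macrophage marker genes was 1259 and 592 in these samples, with a range of 230 to 1259 over PN1a, against 80.5 to 230 over PN1b. All 11 macrophage genes had a difference above 0, with a median of 1.23, and C1qb and Cd68 were called higher. The sum of 11 luminal markers was 300 and 870 in PN1a 1 and PN1a 2, with a range of 300 to 2125 over PN1a, against 1332 to 2228 over PN1b. Krt8 and Krt18, the brightest of these markers, differed by -1.25 and -1.40. Of the 11 luminal genes 4 had a difference above 0, among them Krt19 at 2.63 and Muc1 at 1.41, and the median was -0.27. The dimmer Krt19 probe set was called higher. The mean of the centred log2 values of this list overlapped, from -1.55 to 0.78 over PN1a and from -0.20 to 0.34 over PN1b. For 9 adipocyte markers the sum ranged from 69.9 to 193 over PN1a, against 213 to 282 over PN1b, but this sum is carried by Lpl, the lipase that frees fatty acids from lipoproteins, which was called lower. Of these 9 genes 6 had a difference above 0, among them Adipoq at 0.27 and Lipe at 0.48, and the median was 0.10. The mean of their centred log2 values overlapped between the groups, from -0.77 to 0.57 over PN1a and from -0.30 to 0.32 over PN1b. For 12 proliferation markers the summed intensity ranged from 282 to 634 over PN1a, against 306 to 487 over PN1b, and 0 were called. The sum of 9 immediate early genes was 467 in PN1a 1 and 485 in PN1a 2, where the remaining 9 samples ranged from 2219 to 4196, and that of 6 endothelial markers was 100.4 and 44.2, against 157 to 221. The sum of 9 basal markers, of which Trp63 was called lower, was 747 and 678, against 1109 to 2206, and that of 6 fibroblast markers was 641 in PN1a 2, against at least 1895 in every other sample. No marker gene of these lists was at the floor in every sample. The part of these lists in the Fdps and Dhcr7 values was not tested. In RNA from whole glands, fewer cells of a type and less RNA per cell cannot be told apart.

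Upstream of Fdps, Idi1 was called higher in PN1a. Its intensities in PN1a 1 to PN1a 5 were 28.8, 27.9, 25.5, 24.6 and 26.5. In PN1b 1 to PN1b 6 they were 17.0, 12.6, 17.8, 18.1, 11.9 and 18.3. The PN1a samples lay close together and all above PN1b, and PN1a 1 and PN1a 2 were only slightly above the rest. The fold change was 1.69 (95% interval 1.30 to 2.21, limma adjusted p = 0.0399). This call was near its threshold. It was kept without PN1b 5 or PN1b 6 and lost when any other sample was left out, with an adjusted p of at most 0.0813, and the log2 difference stayed between 0.68 and 0.80.

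Hmgcs1 was not called. PN1a 1 to PN1a 5 read 61.0, 27.1, 49.5, 54.6 and 57.3, and PN1b 1 to PN1b 6 read 32.9, 21.7, 39.4, 40.5, 34.1 and 28.6. Of the PN1a samples 4 were above every PN1b sample, and PN1a 2 was below 5 of the 6 PN1b samples. The log2 difference was 0.58 (95% interval 0.05 to 1.10, limma adjusted p = 0.219). Without PN1a 2 it was 0.78, with an adjusted p of 0.0800.

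The enzymes that lead from farnesyl diphosphate to lanosterol were not called. Fdft1 read 27.9, 30.7, 28.1, 29.4 and 26.5 in PN1a and 24.4, 28.8, 27.9, 18.6, 22.01 and 17.6 in PN1b. Of the PN1a samples 3 were below the highest PN1b sample, and the fold change was 1.25 (95% interval 0.955 to 1.63, limma adjusted p = 0.363). Sqle read between 31.3 and 53.4 in PN1a and between 26.7 and 53.4 in PN1b, a fold of 0.994 (95% interval 0.724 to 1.37, limma adjusted p = 0.988). Its interval leaves out a difference of 1.5-fold in either direction. Lss was dim, from 2.99 to 6.77 in PN1a and from 1.75 to 5.78 in PN1b, and the fold change was 1.20 (95% interval 0.728 to 2.00, limma adjusted p = 0.720).

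Nsdhl, which acts after lanosterol, was called higher by 2 of its 3 probe sets. On 98630_at PN1a 1 to PN1a 5 read 15.8, 20.5, 22.2, 11.96 and 15.3, and PN1b 1 to PN1b 6 read 7.67, 6.02, 8.51, 6.23, 7.31 and 10.1. All PN1a samples were above all PN1b samples, and here PN1a 3 was the highest. The fold change was 2.23 (95% interval 1.63 to 3.05, limma adjusted p = 0.0124), and the call was kept without any 1 sample (adjusted p of at most 0.0385).

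The dimmest Nsdhl probe set, 93868_at, also separated the groups. PN1a read 7.06, 5.03, 8.28, 7.26 and 7.06, and PN1b read 3.56, 3.10, 4.63, 4.32, 2.73 and 4.26. Its fold change was 1.85 (95% interval 1.38 to 2.49, limma adjusted p = 0.0344). The call held without PN1a 2, PN1b 5 or PN1b 6 and was lost without any other 1 sample (adjusted p of at most 0.0859).

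The third Nsdhl probe set, 98631_g_at, is the partner of 98630_at, and the suffix _g marks probes shared with another set, so they are not independent. It read 21.1, 22.6, 21.7, 18.4 and 9.32 in PN1a and 16.2, 15.5, 14.6, 9.92, 8.88 and 6.32 in PN1b. PN1a 5 fell inside the PN1b range while the other 4 PN1a samples were above it. The log2 difference was 0.66 (95% interval 0.01 to 1.31, limma adjusted p = 0.257). The 3 pairs of Nsdhl probe sets differed by -0.50, -0.23 and 0.27 in their changes, with adjusted p of 0.413, 0.614 and 0.464. Averaged over the 3 probe sets, Nsdhl differed by 0.90 (SE 0.17, limma adjusted p = 0.0141).

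Dhcr7, the enzyme of the last step, had the widest spread within PN1a. PN1a 1 to PN1a 5 read 17.9, 19.0, 6.41, 6.19 and 3.14, and PN1b 1 to PN1b 6 read 3.34, 2.73, 3.34, 2.93, 4.32 and 4.03. PN1a 1 and PN1a 2 were the highest, as for Fdps, PN1a 3 and PN1a 4 were also above every PN1b sample, and PN1a 5 lay within the PN1b range. The SD of log2 intensity was 1.11 in PN1a and 0.26 in PN1b, where the median SD over all probe sets was 0.43 and 0.38. The fold change was 2.47 (95% interval 1.35 to 4.53), and Dhcr7 was not called (limma adjusted p = 0.102). Without PN1a 5 the log2 difference was 1.66 and was called (limma adjusted p = 0.0253). PN1a 5 and PN1b 6 had the highest ratios of 3′ to 5′ signal of the Gapdh control probe sets, 4.17 and 5.21 against 0.8293 to 2.17 in the other 9 samples. With both left out Dhcr7 differed by 1.71 and was called (limma adjusted p = 0.0353), and 4 of the 13 probe sets were called in all. Without PN1a 1 and PN1a 2 the Dhcr7 difference was 0.55 (adjusted p = 0.331).

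Idi1 and both called Nsdhl probe sets had values above 0 among the samples that share the title ending of PN1a, with log2 differences of 0.85 for Idi1, 0.97 for 98630_at and 1.01 for 93868_at, none of which passed in these 7 samples (limma adjusted p = 0.576, 0.604 and 0.557). Without PN1a 1 and PN1a 2 the call was kept by 93868_at (limma adjusted p = 0.0421) and lost by Idi1 and 98630_at (limma adjusted p = 0.128 and 0.0590), with log2 differences of 1.02, 0.70 and 1.09.

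**Figure D3:**
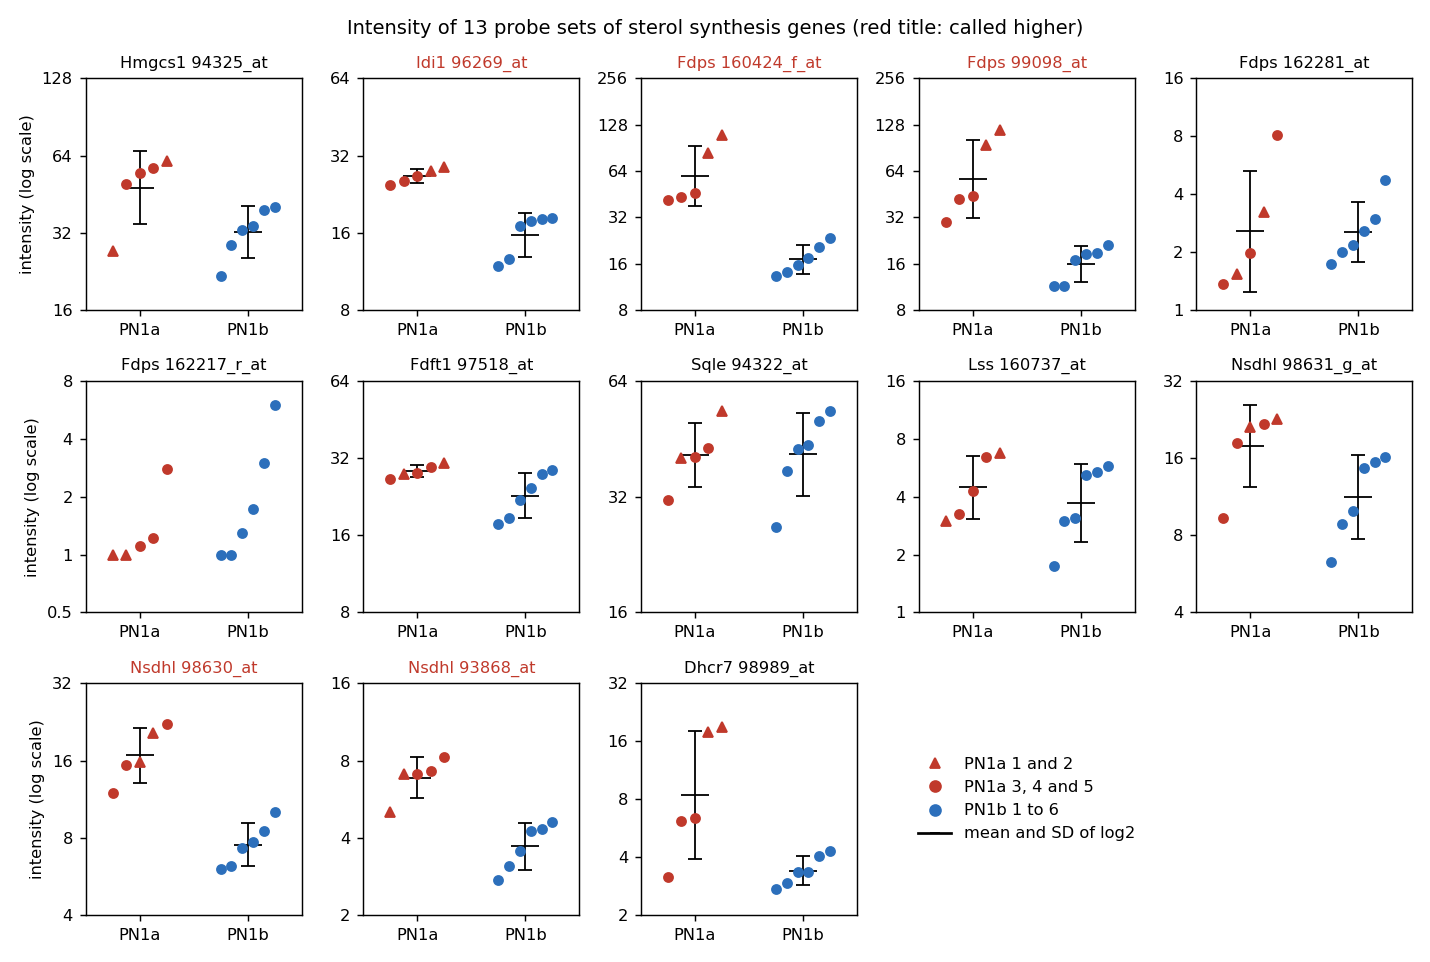
Intensity (log scale, y axis) of each of the 13 probe sets in the 5 PN1a samples (red, triangles for PN1a 1 and PN1a 2) and 6 PN1b samples (blue), with the mean and SD of log2 intensity where no sample was at the floor. Idi1 lies between 24.6 and 28.8 in PN1a and between 11.9 and 18.3 in PN1b, while Sqle spans about the same range in both groups.

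The genes also differed in how their values were spread over the samples. As a measure of likeness, the root mean square difference of log2 profiles over the 11 samples, each centred on its own mean, was taken from the mean of the bright Fdps pair. This measure includes the difference between the lines and its size, so it partly restates the differences given above. Dhcr7 was closest at 0.485, followed by the Nsdhl probe sets at 0.628 to 0.778, Idi1 at 0.728, Fdft1 at 0.865, Hmgcs1 at 0.927, Sqle at 1.03 and Lss at 1.04. Among 5616 probe sets of single genes outside the 8, with a mean at or above the median, the closest to the bright Fdps pair were Dok1 (0.380), Lman2 (0.426), Nes (0.431), Lamp1 (0.441) and Grn (0.443). The bright pair was taken as the target after its values were seen. The closest to the mean of all 4 Fdps probe sets were Plrg1 (0.225), Memo1 (0.226), Psma5 (0.226), Ubfd1 (0.233) and Pabpc4 (0.246). For the mean of the other 9 member probe sets they were Cd151 (0.146), Synj2 (0.197), Bola2 (0.197), Bub3 (0.201) and Psma7 (0.202).

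The other enzymes of the pathway were not called in either direction. Of 14 listed genes 10 were measured, each counted by its brightest probe set, 7 had a difference above 0 and the median was 0.33, against -0.03 over all 8251 genes. Msmo1, which oxidises the C4 methyl groups before Nsdhl acts, differed by 0.70 (limma adjusted p = 0.203). Mvk, mevalonate kinase, differed by 0.55 (limma adjusted p = 0.185), and Cyp51, the lanosterol demethylase, by 0.40 (limma adjusted p = 0.342). Ggps1, which extends farnesyl diphosphate to geranylgeranyl diphosphate, differed by -0.21, and Mvd, which makes isopentenyl diphosphate, by -0.37 (limma adjusted p = 0.695).

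Of the sterol sensors and SREBP regulators 3 of 10 were measured and 0 were called. Srebf1, which encodes SREBP-1, differed by 0.33, Insig1, which retains SREBP in the endoplasmic reticulum, by -0.37, and Mbtps1, the site-1 protease that cleaves SREBP, by -0.41. Mbtps1 was lower in every PN1a sample than in any PN1b sample but did not pass (limma adjusted p = 0.164). Of 16 genes of cholesterol transport and efflux 13 were measured, 10 had a difference above 0, the median was 0.31 and 0 were called. Npc2, which carries cholesterol out of lysosomes, differed by 0.64 with no overlap of the groups (limma adjusted p = 0.104). Scarb1, the receptor for high-density lipoprotein, and Nr1h3, the oxysterol receptor LXR alpha, each differed by -0.79 (limma adjusted p = 0.128 and 0.134). The brighter Vldlr probe set differed by -0.62 and the dimmer by -1.12 (limma adjusted p = 0.199 and 0.0513).

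In the isoprenoid branch, which uses the product of Fdps to modify proteins, 6 of 13 listed genes were measured and 0 were called, while all 6 had a difference below 0 with a median of -0.58. Over all 8251 genes, 3877 had a difference above 0. Fnta, the alpha subunit shared by the protein farnesyl and geranylgeranyl transferases, differed by -0.72 (limma adjusted p = 0.0969), and Fntb, the beta subunit of the farnesyl transferase, by -0.74 (limma adjusted p = 0.436). Rabggtb, the beta subunit of Rab geranylgeranyl transferase, differed by -0.81 (limma adjusted p = 0.0733). Icmt, Rabggta and Rce1 differed by -0.43, -0.18 and -0.02. The summed intensity of the list ranged from 82.0 to 93.3 over PN1a, against 95.5 to 151 over PN1b. The mean of the centred log2 values overlapped, since PN1a 1 and PN1a 4, at -0.13 and -0.065, were above PN1b 5 and PN1b 6, at -0.18 and -0.21. PN1b 5 and PN1b 6 carry the title ending of PN1a, while PN1b 1 to PN1b 4, with other endings, lay at 0.265 to 0.588.

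In fatty acid synthesis, the other lipid pathway under SREBP control, the called genes were lower in PN1a. Of 13 listed genes 10 were measured, 0 were called higher and 2 (20%) lower, against 1.84% of all genes called lower, and the median was -0.44. The mean of the centred log2 values ranged from -0.515 to -0.0015 over PN1a and from 0.315 to 0.353 over PN1b 1 to PN1b 4. PN1b 5 and PN1b 6, which carry the title ending of PN1a, lay within the PN1a range at -0.327 and -0.223. Acly, which makes cytosolic acetyl-CoA for both fatty acids and sterols, averaged a log2 intensity of 6.18 ± 0.23 (SD, n = 5) among the PN1a samples, while PN1b averaged 7.18 ± 0.34 (SD, n = 6). It fell by 0.996 on the log2 scale (SE 0.20, limma adjusted p = 0.0231), with no overlap of the groups. Thrsp, a regulator of lipogenesis abundant in fat and mammary epithelium, fell by 1.33 (SE 0.30, limma adjusted p = 0.0374) with overlap. Elovl6, which elongates palmitate, was called lower by its dimmer probe set only, 103665_at (-0.98, limma adjusted p = 0.0333), and the brighter one, 94418_at, differed by 0.19 (limma adjusted p = 0.646). Elovl5 and Fads1, which act on polyunsaturated fatty acids, differed by -0.88 and -0.69 (limma adjusted p = 0.0580 and 0.406). Fasn, fatty acid synthase, differed by 0.45 (limma adjusted p = 0.173), and Scd2, a stearoyl-CoA desaturase, by 0.77 (limma adjusted p = 0.251). The Acly, Thrsp and Elovl6 calls were lost with the title ending as a fixed block, where the log2 differences were -0.68, -0.87 and -0.76 (limma adjusted p = 0.432, 0.512 and 0.438), and without PN1a 1 and PN1a 2 (limma adjusted p = 0.0992, 0.146 and 0.143). Each was lost without some single samples, Acly without PN1a 1, PN1b 1, PN1b 3 or PN1b 4 (adjusted p of at most 0.0647) and Thrsp without any 1 sample other than PN1a 4, PN1b 5 or PN1b 6 (at most 0.0909), while the Elovl6 call was lost without PN1a 1, PN1a 2, PN1a 3, PN1b 1, PN1b 3 or PN1b 4 (at most 0.0842).

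**Figure D4:**
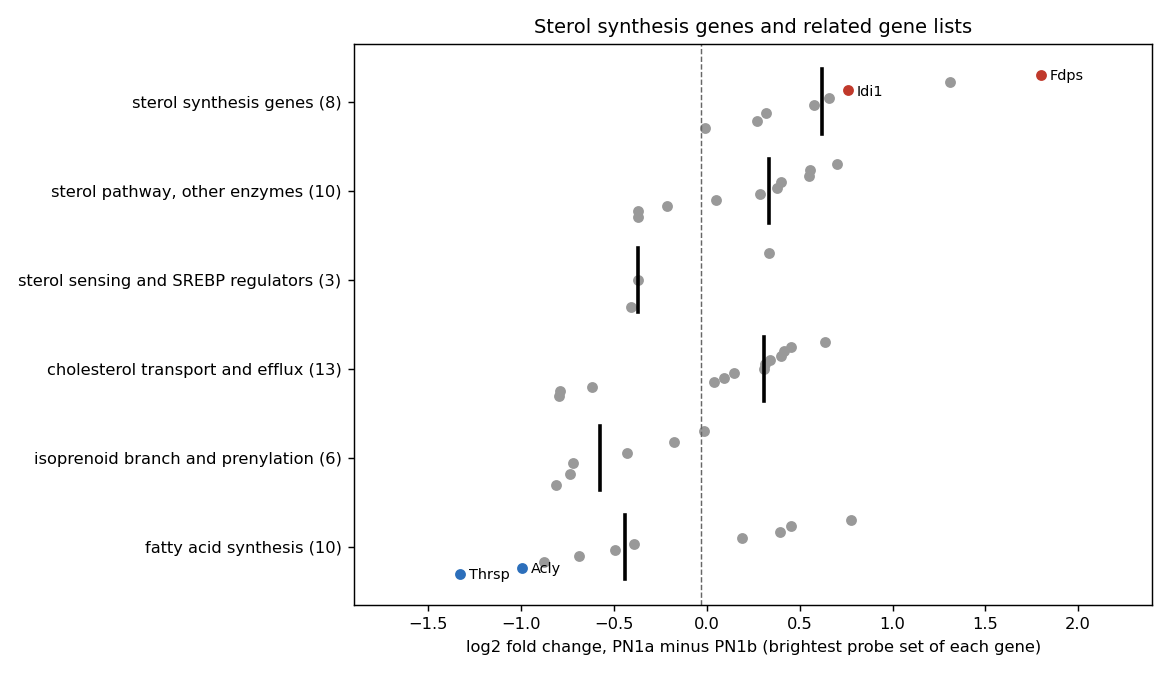
Log2 difference in intensity between PN1a and PN1b for each measured gene (1 dot per gene, by its brightest probe set) of the 8 sterol synthesis genes and 5 lists of related genes, with the median of each list as a black bar. The dashed line is the median of all 8251 genes, -0.03, and the medians of the related lists run from -0.58 for the isoprenoid branch to 0.33 for the other sterol enzymes.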

How the data were processed

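Total RNA of 11 mammary gland samples was measured on Affymetrix MG_U74Av2 arrays. Mismatch-subtracted (PM-MM) model values were computed by the authors in dChip, which was also used for quantile normalization. The deposited values are linear intensity values of 12488 probe sets with a floor of 1, where 0.813% of values lie. Log2 was taken with no pseudocount and 66 array controls were left out. At most 1.09% of values above the floor were identical between any 2 samples. The number of arrays limits the precision, and signs of RNA quality and the endings of the sample titles, given with the results, differ between samples.

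Gene symbols came from the annotation of the array (10833 probe sets had 1 symbol, 396 several and 1193 none). The lines were compared with limma 3.58.1 under R 4.3.3 (functions lmFit and eBayes, two-sided, no covariate), checked on simulated data. Differences between probe sets of a gene were compared by exact permutation tests. Lists were counted by 1 probe set per gene, and list genes were named if called or past 1.5-fold, with others added as examples after their values were seen. Likeness was the root mean square difference of centred log2 profiles. The rule for printing promoters, called genes that hold the sterol regulatory element core, took none. The 8 genes, the lists and the tests were chosen with earlier results of these data known. Alternatives changed the test, block, scaling, pseudocount, filter, fold threshold and samples, and the omission of PN1a 5 and PN1b 6 was added after the control probe sets had been seen. Plots used matplotlib 3.10.9 under Python 3.11.15.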

Additional observations from a re-analysis of the deposited data

Results flagged for a closer look

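Among the 26 groups of samples (13 probe sets in each line), 3 held a sample far from the others by Dixon's ratio of the gap to the range, where chance alone gives about 1 in 20 groups. For Hmgcs1 94325_at in PN1a the ratio was 0.744 against a critical value of 0.71, because PN1a 2 was lowest at 27.1 and the next sample was 49.5. For Nsdhl 98631_g_at in PN1a it was 0.766, with PN1a 5 lowest at 9.32 and the next at 18.4. For Fdps 162217_r_at in PN1a it was 0.803, with PN1a 5 highest at 2.77 and the next at 1.22, close to the floor of the table.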

How the results depend on the processing

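The count of 5 probe sets called higher fell to 0 with the title ending as a fixed block and with samples of 1 ending alone, to 3 with the ending as a random block, to 4 with the methods' t-test after Benjamini-Hochberg (Fdps 99098_at was lost), to 2 with log2(value + 16), to 3 at a fold of at least 2, to 3 without PN1a 1 and PN1a 2, and ranged from 3 to 5 without single samples (3 without PN1a 1, PN1a 3, PN1a 4, PN1b 1, PN1b 2, PN1b 3 or PN1b 4). No member was called lower under any alternative. The 2 calls lower among related genes became 5 with the methods' t-test before adjustment (1 gene was then also called higher), 1 after Benjamini-Hochberg, 0 with the fixed block and within the ending, 1 with the random block, 4 among probe sets with a mean at or above the median, 1 at a fold of at least 2, 0 without PN1a 1 and PN1a 2, 1 without PN1a 5 and PN1b 6, and 0 to 4 without single samples. The number of probe set pairs that passed was 0, became 5 with log2(value + 16), which by construction holds dim probe sets near no change, and ranged from 0 to 4 without single samples. Across all probe sets the calls higher fell from 108 to 12 with the fixed block and to 6 within the ending. The cause was not tested.

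Near-zero members turned. Fdps 162281_at became -0.56 with the fixed block and within the ending, -0.075 with the random block, -0.37 without PN1a 5 and PN1b 6, and -0.41 to 0.23 without single samples. Sqle became 0.17 with the fixed block and within the ending, 0.022 with the random block, 0.074 after repeated quantile normalization, 0.051 after median centring, 0.033 without PN1a 5 and PN1b 6, and -0.13 to 0.089 without single samples. The gap between Nsdhl 98631_g_at and 93868_at became 0.094 with log2(value + 16) and ranged from -0.44 to 0.013 without single samples, and that between Fdps 160424_f_at and 99098_at ranged from -0.15 to 0.024. No scaling moved the median of all probe sets by over 0.1. No paired analysis was possible because the sample titles carry no shared replicate numbers.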
